A study of Mus musculus with 2 samples.

Results

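The translation initiation factors are the proteins that bring the initiator tRNA, the mRNA and the small ribosomal subunit together at a start codon. Their genes were taken from the deposited table as all symbols that begin with Eif and a digit, leaving out the eIF2 kinases (Eif2ak) and the genes of the eIF2 γ subunit (Eif2s3). The rule gave 48 genes of the 17245 in the table. The tissue was mouse pancreatic islets, clusters of endocrine cells made up mostly of β-cells, the source of insulin; they were freed with collagenase P, picked under a stereoscope and cultured. Islets of mice with a β-cell knockout of cGAS, the sensor of cytosolic DNA, are labelled KO, and islets of wild-type mice WT. The sources used here give no age, sex, number of animals or driver of the knockout. Each genotype has 1 library. Differences therefore lack any replicate check, and no p-value was computed.

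Initiation proceeds in steps that are carried out by separate complexes. eIF2 carries the initiator tRNA and is recharged by the exchange factor eIF2B; eIF1, eIF1A and eIF5 control scanning and start-codon choice; eIF3 holds the small subunit; and eIF4F, made of the cap-binding protein eIF4E, the scaffold eIF4G and the helicase eIF4A, recruits the mRNA. 4E-binding proteins compete with eIF4G for eIF4E when mTORC1 is inactive, and phosphorylation of eIF2 blocks eIF2B. β-cells depend on this control, since glucose raises their translation of proinsulin, and loss of the eIF2 kinase PERK causes diabetes in mice.

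Values are FPKM, reads (or fragments) per 1000000 and per kilobase of gene length, as deposited. They came out as whole reads for 17178 of 17245 genes with totals of 14537660 reads for KO and 19097001 for WT. Intervals are exact Clopper-Pearson 95% intervals from the smallest such reads and cover counting error only. Cgas itself was at 0.521 FPKM in KO and 0.205 FPKM in WT, 2.55-fold higher (1.35 to 4.98). This ratio rests on at least 31 reads in KO and 16 in WT. A gene total in whole islets cannot show whether Cgas was lost in β-cells, so the label could not be checked. KO therefore names that library by its label only, and every direction holds between the labelled libraries. Marker genes of other cell types also differed. All 8 endothelial, all 8 macrophage and all 7 expressed stromal markers were above a log2 ratio of 0, with summed FPKM of 427 in KO against 201 in WT, 314 in KO against 132 in WT and 120 in KO against 61.0 in WT. All 9 expressed acinar markers were below 0, with 89.1 FPKM in KO against 1764 FPKM in WT. Of 10 β-cell markers 8 were lower in KO, while their summed FPKM, mostly from both insulin genes, was 436822 in KO against 396369 in WT. In whole islets fewer cells of a type and less RNA per cell cannot be told apart, and the part of cell composition in the differences below was not tested.

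Of the 48 genes, 47 reached 1 FPKM in either library and were counted as expressed. The exception was Eif3j2, a close copy of Eif3j1, at 0.654 FPKM in KO and 0.671 FPKM in WT. In level the expressed genes spanned 2.05 to 301 FPKM in the KO-labelled library and 3.86 to 225 FPKM in the WT library, with medians of 35.1 FPKM in KO and 29.9 FPKM in WT. Over all 12428 expressed genes the medians were 7.62 FPKM in KO and 7.47 FPKM in WT. The most abundant was Eif1, at 301 FPKM in the KO-labelled library and 225 FPKM in the WT library, followed by Eif5a (151 FPKM in KO, 140 FPKM in WT) and Eif4a1 (148 FPKM in KO, 133 FPKM in WT). They had this order in both libraries. The summed FPKM was 2241 in the KO-labelled library and 2229 in the WT library, which is 0.668% of all FPKM in KO and 0.701% in WT when both insulin genes are left out.

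**Figure D1:**
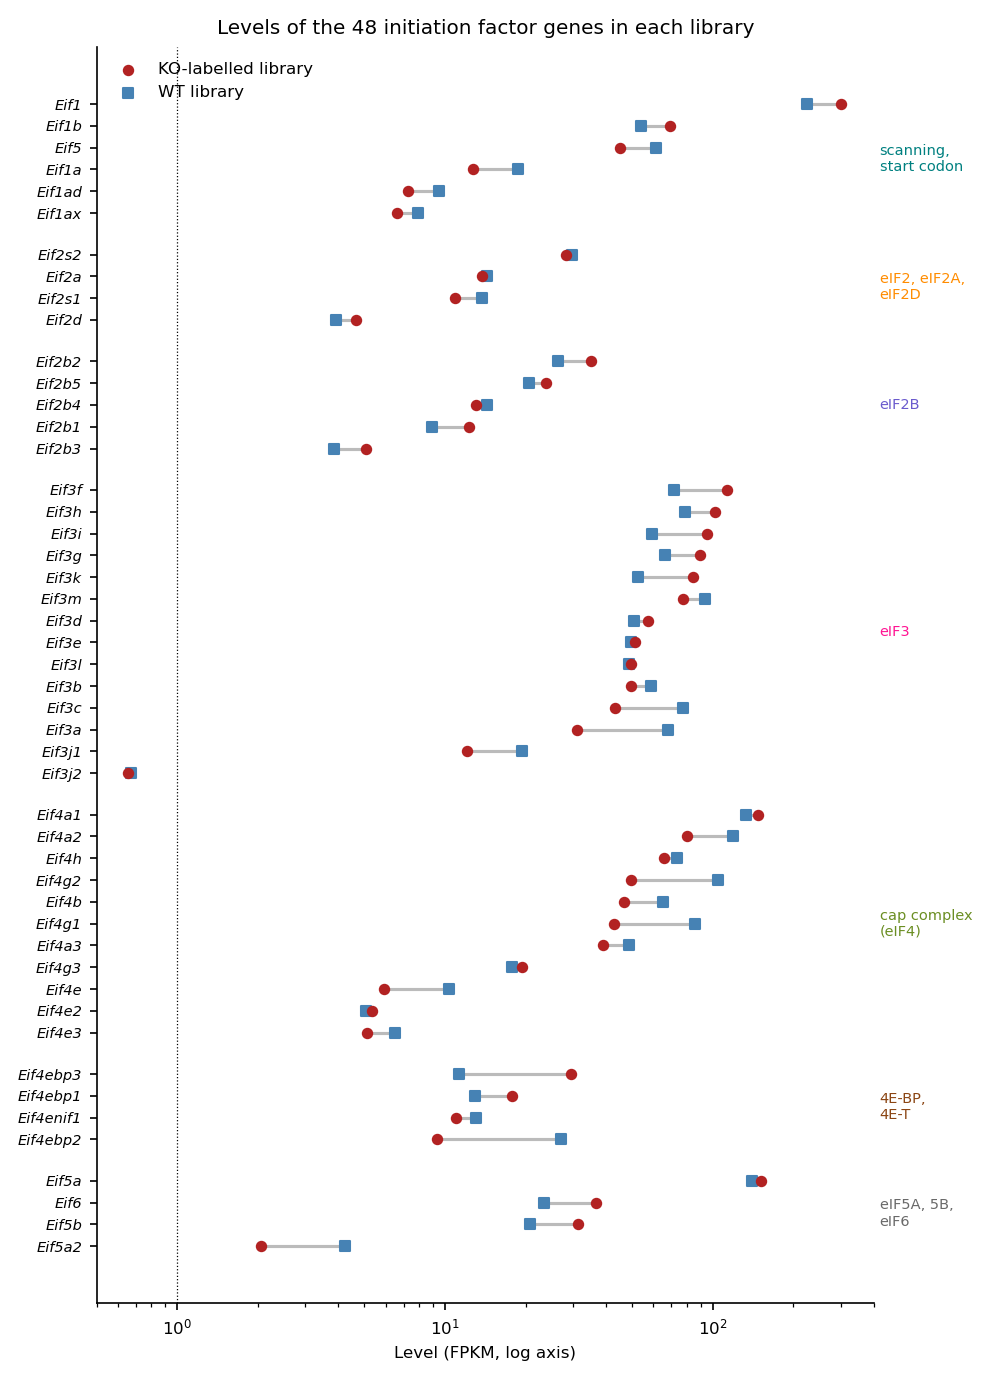
FPKM of the 48 genes on a log axis, grouped by role and ordered by level in the KO-labelled library. Circles are the KO-labelled library, squares the WT library, and the dotted line marks 1 FPKM; Eif1 is highest in both libraries, and the widest gaps are those of Eif4ebp2 and Eif4ebp3.

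Differences are log2((KO + 1)/(WT + 1)), a scale that understates changes of low genes. The median of the 47 expressed genes was -0.06, with 23 above 0 and 24 below 0, and quartiles of -0.39 and 0.36. Over all expressed genes the median was 0.08, with 6766 above 0 and 5662 below 0, and quartiles of -0.35 and 0.51. At a limit of 1.5-fold on this scale 5 initiation factor genes were higher, 10.6%, where 21.4% of all expressed genes were. At the same limit 8 were lower, 17.0%, where 13.5% of all expressed genes were. At 2-fold 1 gene was higher, where 6.98% of all genes were, and 3 were lower, where 3.88% of all genes were. The direction of small differences depends on the scaling. With each library scaled to a sum of 1000000 the median of all genes moved to -0.05 and that of the initiation factors to -0.20, and 1 gene was then at least 1.5-fold higher and 11 lower. Higher genes made up 38.5% of the 1.5-fold calls among initiation factors and 61.3% among all genes, against 8.33% and 46.7% with that scaling.

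**Figure D2:**
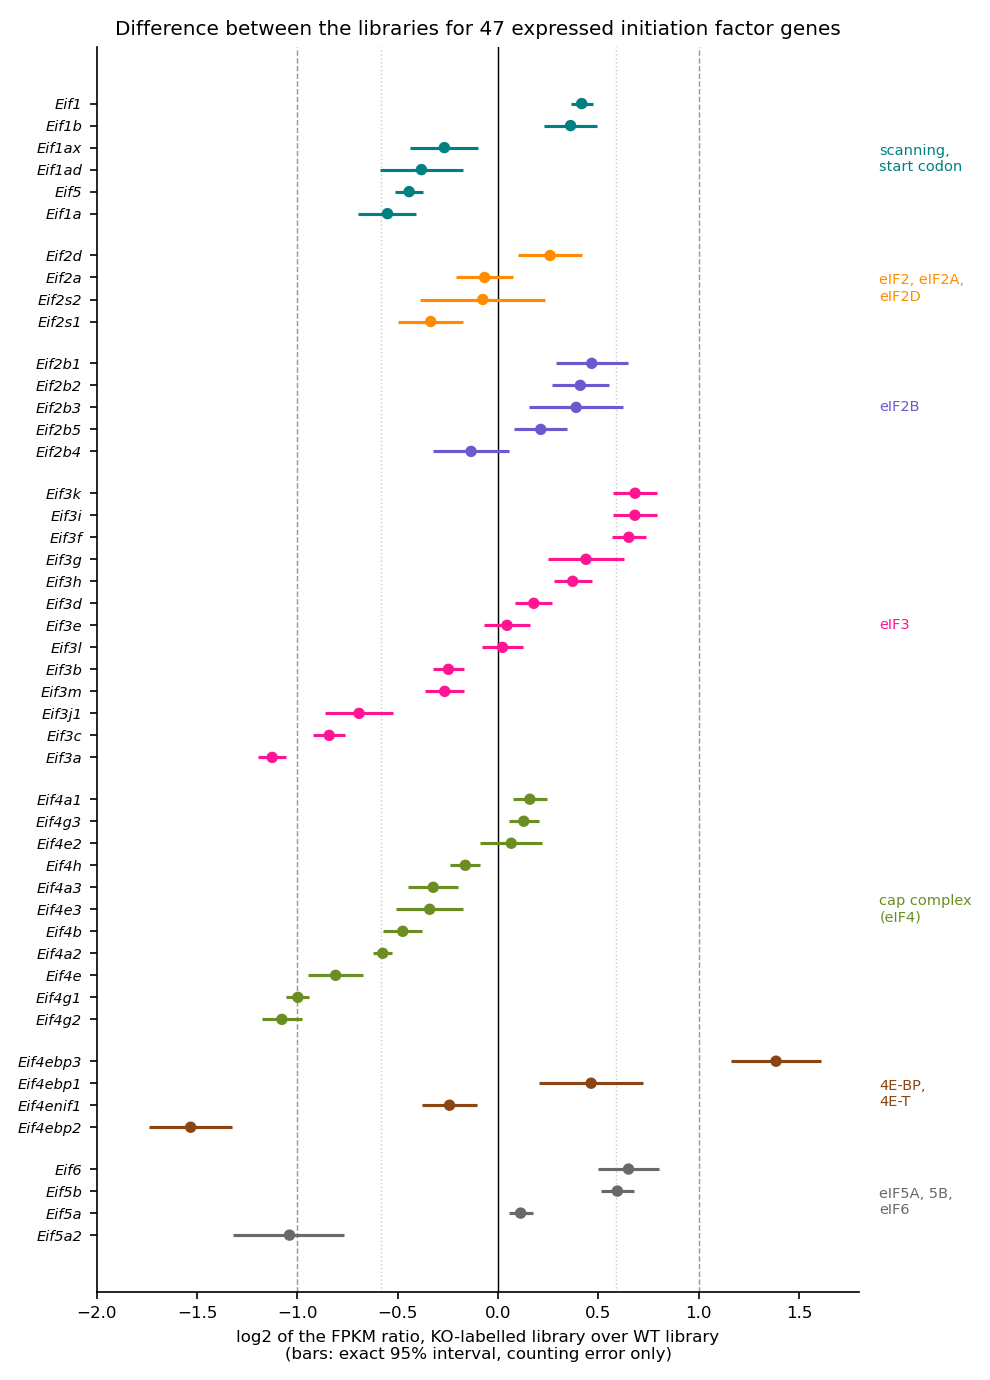
log2 of the FPKM ratio of 47 expressed genes, KO-labelled library over WT library, by role, with exact 95% intervals for counting error. Dotted lines mark 1.5-fold and dashed lines 2-fold on the plain ratio; Eif4ebp3 lies farthest to the right and Eif4ebp2 farthest to the left, in the same group of genes.

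The widest differences in both directions were in the 4E-binding proteins, the small repressors that sequester eIF4E. Eif4ebp2 was at 9.36 FPKM in the KO-labelled library against 27.1 FPKM in the WT library, 2.89-fold lower (2.51 to 3.34), a log2 ratio of -1.44. Eif4ebp3 was at 29.5 FPKM in KO against 11.3 FPKM in WT, 2.61-fold higher (2.24 to 3.05), a log2 ratio of 1.31. Eif4ebp1, the best studied of them and a target of the stress factor ATF4, was at 17.8 FPKM in KO against 12.9 FPKM in WT, a log2 ratio of 0.43, within 1.5-fold. The summed FPKM of the family was 56.6 in KO and 51.3 in WT, so the make-up differed more than the sum. Eif4ebp3 held 52.0% of it in KO and 22.0% in WT, Eif4ebp2 16.5% in KO and 52.8% in WT, and Eif4ebp1 31.4% in KO and 25.2% in WT. Such shares within a library do not depend on how the libraries are scaled to each other. The ratio of Eif4ebp3 to Eif4ebp2 was 3.15 in the KO-labelled library and 0.417 in the WT library.

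The Eif4ebp3 value is uncertain. In GENCODE M21 its exons on chromosome 18 (36664060 to 36666324 in RefSeq, GRCm38.p6) share 67.3% of their bases, on the same strand, with AC115631.1, a gene that also overlaps 17.6% of the exonic bases of the neighbouring Ankhd1. The sources used here do not say how reads in the shared bases were assigned. Ankhd1, looked up after its neighbour's value was seen, was at 13.2 FPKM in KO against 16.5 FPKM in WT, 1.25-fold lower (1.17 to 1.33). With a trend on GC content and transcript length removed, the log2 ratio of Eif4ebp3 was 0.64, past 1.5-fold but short of 2-fold, and that of Eif4ebp2 was -1.35. Eif4enif1, which encodes the eIF4E transporter 4E-T, was at 11.01 FPKM in KO against 13.0 FPKM in WT, a log2 ratio of -0.22.

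**Figure D3:**
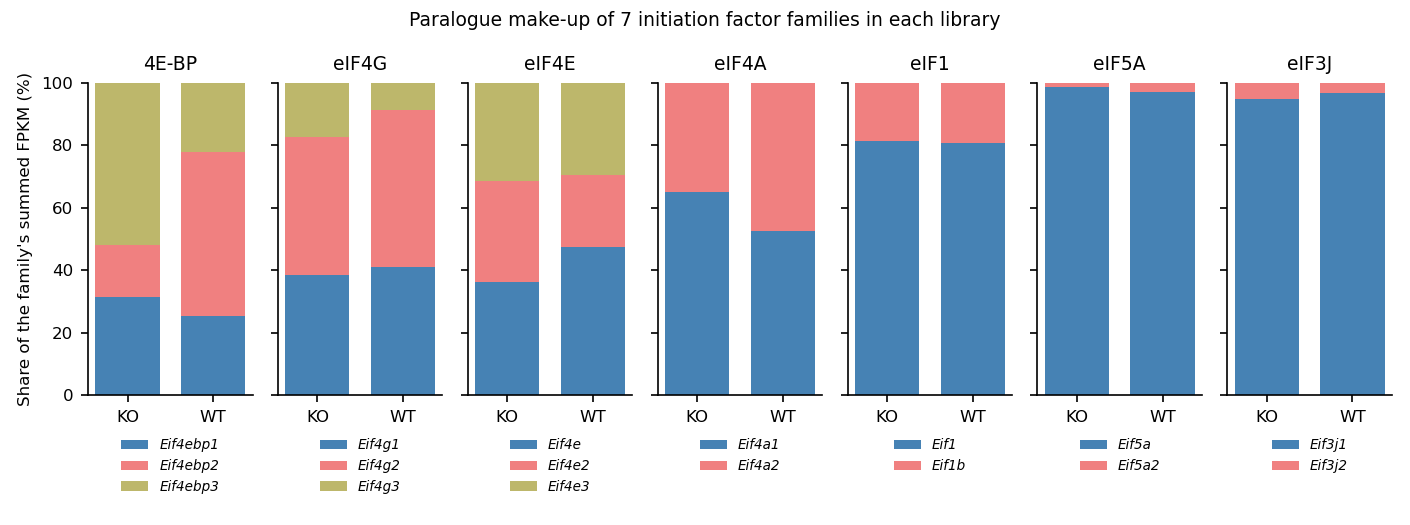
Share of each paralogue in the summed FPKM of its family, in percent, for 7 families, with the KO-labelled library (KO) left of the WT library (WT) in each panel. Eif4ebp3 holds 52.0% of the 4E-BP family in the KO-labelled library against 22.0% in the WT library, while the eIF1, eIF5A and eIF3J panels hardly differ.

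Genes of the cap complex, its helpers and their paralogues lay mostly below 0 in the KO-labelled library. Of 11 expressed genes 8 were below 0 and 3 above, with a median of -0.32. Over all 12428 expressed genes 5662 were below 0. At least 1.5-fold lower were 3 of the 11, or 27.3%, beside 13.5% of all expressed genes, and 0 were that much higher, beside 21.4%. The scaffold Eif4g1 was at 42.8 FPKM in KO against 85.5 FPKM in WT, 1.997-fold lower (1.92 to 2.08). Eif4g2, which encodes the related protein DAP5 that lacks the eIF4E-binding site, was at 49.6 FPKM in KO against 105 FPKM in WT, 2.11-fold lower (1.97 to 2.26). The third paralogue, Eif4g3, was at 19.4 FPKM in KO against 17.8 FPKM in WT, a log2 ratio of 0.12. That ratio fell below 0 in at least 1 alternative scaling. With the GC and length trend removed, the log2 ratios were -0.98 for Eif4g1, -0.62 for Eif4g2 and 0.29 for Eif4g3. Summed eIF4G FPKM was 112 in KO against 208 in WT, and Eif4g3 made up 17.4% of it in the KO-labelled library and 8.56% in the WT library.

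The cap-binding protein gene Eif4e was at 5.93 FPKM in KO against 10.4 FPKM in WT, 1.75-fold lower (1.59 to 1.93). The log2 ratio of Eif4e, -0.72, became -0.35, within 1.5-fold, with the GC and length trend removed. Its paralogue Eif4e2, which encodes the repressive cap-binding protein 4EHP, was at 5.32 FPKM in KO against 5.08 FPKM in WT and its ratio had an interval of 0.940 to 1.16, too wide to show a difference at this depth. Eif4e3 was at 5.12 FPKM in KO against 6.49 FPKM in WT, a log2 ratio of -0.29. Eif4e thus held 36.2% of the family's FPKM in the KO-labelled library and 47.3% in the WT library. The 3 genes were close to each other in level in the KO-labelled library. Per length, Eif4g1 exceeded Eif4e 7.23-fold in the KO-labelled library and 8.24-fold in the WT library.

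Among the helicases, Eif4a2 was at 79.8 FPKM in KO against 119 FPKM in WT, 1.49-fold lower (1.44 to 1.54) and just inside the 1.5-fold limit. Eif4a1 was at 148 FPKM in KO against 133 FPKM in WT, a log2 ratio of 0.16. Eif4a1 held 64.9% of their sum in the KO-labelled library and 52.7% in the WT library. Reads of Eif4a1 are hard to place, since 65.3% of the 50-base words of its longest coding transcript also occur in transcripts of other genes, among them the pseudogene Eif4a-ps4. Eif4a3, a core protein of the exon junction complex, was at 38.8 FPKM in KO against 48.5 FPKM in WT, a log2 ratio of -0.32 that became -0.74 with the GC and length trend removed. The helicase cofactors Eif4b and Eif4h had log2 ratios of -0.47 and -0.16.

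The subunits of eIF3 spread to both sides. Of 13 expressed subunit genes 8 were above 0 and 5 below, beside 6766 above 0 of all 12428 expressed genes. The median of the subunits was 0.04. The median changed sign in other settings, to -0.10 with either scaling to equal sums and to -0.20 with the GC and length trend taken out. Past the 1.5-fold limit lay 3 higher and 3 lower subunits, 23.1% each, beside 21.4% higher and 13.5% lower among all expressed genes. Eif3a, the largest subunit and the scaffold of the complex, was at 31.1 FPKM in KO against 67.9 FPKM in WT, 2.18-fold lower (2.08 to 2.29). Eif3c, another core subunit, was at 43.2 FPKM in KO against 77.5 FPKM in WT, 1.79-fold lower (1.70 to 1.89). Eif3j1, whose product is a loosely bound subunit, was at 12.0 FPKM in KO against 19.4 FPKM in WT, 1.62-fold lower (1.44 to 1.82). Its transcript shares 54.8% of its 50-base words with other genes, among them Eif3j2.

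Among the higher subunits, Eif3k, which binds Eif3l protein at the edge of the core, was at 84.5 FPKM in KO against 52.7 FPKM in WT, 1.60-fold higher (1.49 to 1.73). Eif3i, a WD-repeat subunit, was at 95.3 FPKM in KO against 59.4 FPKM in WT, 1.60-fold higher (1.49 to 1.73). Eif3f, a subunit with an MPN domain, was at 113 FPKM in KO against 71.8 FPKM in WT, 1.57-fold higher (1.48 to 1.67). Eif3h was at 102 FPKM in KO against 79.0 FPKM in WT and Eif3g at 89.5 FPKM in KO against 66.0 FPKM in WT, with log2 ratios of 0.37 and 0.43. Eif3e and Eif3l, at log2 ratios of 0.04 and 0.02, had intervals that included a ratio of 1. Eif3d was at 0.17, Eif3b at -0.24 and Eif3m at -0.26. Eif3d, Eif3e, Eif3g, Eif3h and Eif3l were below 0 in at least 1 alternative scaling or with the GC and length trend taken out.

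Subunits of the complex were thus less even in level in the KO-labelled library. Among the 8 subunits that form its octameric core, the highest exceeded the lowest 3.62-fold in the KO-labelled library (31.1 to 113 FPKM) and 1.91-fold in the WT library (48.7 to 93.3 FPKM). The SD of their log2 FPKM was 0.66 in KO and 0.35 in WT. The ratio of Eif3k to Eif3a was 2.72 in the KO-labelled library and 0.776 in the WT library. With the GC and length trend removed, Eif3k and Eif3i were at 0.04 and 0.17, while Eif3f was at 0.60, Eif3a at -0.77 and Eif3c at -0.79, all 3 past 1.5-fold.

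All 5 subunit genes of eIF2B, the exchange factor that reloads eIF2 with GTP, were within 1.5-fold. Of these 4 were above 0, with a median of 0.32, beside 6766 of all 12428 expressed genes and their median of 0.08. The highest of the 5 was Eif2b1, which encodes the regulatory α subunit, at 12.3 FPKM in KO against 8.93 FPKM in WT, 1.38-fold higher (1.22 to 1.56). Eif2b4, which encodes δ, was lowest, at 13.0 FPKM in KO against 14.3 FPKM in WT, and the interval of its ratio ran from 0.800 to 1.04. The catalytic subunit genes Eif2b3 and Eif2b5 had log2 ratios of 0.32 and 0.20, and Eif2b2 was at 0.40. The median with the GC and length trend removed was 0.00, so the position of the group above 0 depends on that trend.

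Genes of eIF2 and of the proteins that can deliver tRNA in its place differed little. Eif2s1, the α subunit that the eIF2 kinases phosphorylate, was at 10.9 FPKM in KO against 13.8 FPKM in WT, 1.26-fold lower (1.13 to 1.41). Eif2s2, the β subunit, was at 28.4 FPKM in KO against 29.9 FPKM in WT and Eif2a at 13.7 FPKM in KO against 14.4 FPKM in WT, both with intervals that included a ratio of 1. Eif2d was highest, at 4.66 FPKM in KO against 3.90 FPKM in WT, a log2 ratio of 0.21. None of these 4 genes passed 1.5-fold.

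The factors of scanning and start-codon choice also stayed within 1.5-fold, and lay on both sides of 0. Eif1, the gatekeeper of start-codon fidelity, was 1.33-fold higher (1.29 to 1.39), and its paralogue Eif1b was at 69.1 FPKM in KO against 53.8 FPKM in WT, 1.28-fold higher (1.17 to 1.41). Eif1 held 81.3% of their sum in the KO-labelled library and 80.7% in the WT library. The genes of eIF1A were lower, with Eif1a at 12.8 FPKM in KO against 18.7 FPKM in WT, a log2 ratio of -0.52, and Eif1ax at 6.59 FPKM in KO against 7.93 FPKM in WT, a log2 ratio of -0.24. Eif5, the GTPase activator of eIF2, was at 45.1 FPKM in KO against 61.3 FPKM in WT, a log2 ratio of -0.43, and Eif1ad at -0.34. Once the GC and length trend was taken out, Eif1b was at -0.23 and Eif1ax at 0.14.

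Among the genes of subunit joining and eIF5A, Eif6, which keeps free large subunits from joining small ones, was at 36.8 FPKM in KO against 23.4 FPKM in WT, 1.57-fold higher (1.41 to 1.74). Eif5b, the GTPase that joins the subunits, was at 31.3 FPKM in KO against 20.8 FPKM in WT, 1.51-fold higher (1.43 to 1.60), with a log2 ratio of 0.57 just short of the limit. With the GC and length trend removed the pair changed places, with Eif5b at 1.00, past 2-fold, and Eif6 at 0.04. Of the exonic bases of Eif5b, 16.85% overlap Rev1 on the other strand, and 18.17% of the 50-base words of its transcript occur in other genes. Eif5a, whose hypusine-modified product helps ribosomes through difficult peptide bonds, was at 151 FPKM in KO against 140 FPKM in WT, a log2 ratio of 0.11 that became -0.38 with the trend taken out. Its paralogue Eif5a2 was at 2.05 FPKM in KO against 4.22 FPKM in WT, 2.06-fold lower (1.70 to 2.50) and a log2 ratio of -0.77, on at least 150 reads in KO and 405 in WT. Eif5a held 98.7% of their sum in the KO-labelled library and 97.1% in the WT library.

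Promoter sequence was looked at for the 3 highest and 3 lowest log2 ratios among genes with an entry, and for 5′ TOP genes. The mRNAs of TOP genes begin with a C and a run of pyrimidines that couples their translation to mTORC1. RefSeq promoter entries (GRCm38.p6) matched 37 of the 48 genes. The windows shown run from 100 bases before the start of the entry to 20 bases after it, 5′ to 3′. Eif4ebp2, the lowest, is not shown, because its whole window lies inside the RefSeq range of the gene. No other gene took its place. Eif3a and Eif4g1 stand for genes that were lower in the KO-labelled library, Eif3k, Eif3f and Eif5b for genes above 0, and Eif3f and Eif4b for known TOP genes. Capitals mark the matches found in these windows, which were E-box (CACGTG), NF-Y (CCAAT) and NRF1 core (GCATGCGC) letters on either strand and a TOP-like start, a C followed by at least 4 of C or T that begins within 5 bases of the start. In Eif3k the NRF1 core matches both strands, so the capitals run over 2 overlapping matches.
Eif3a, chr19:60790674-60790793, minus strand: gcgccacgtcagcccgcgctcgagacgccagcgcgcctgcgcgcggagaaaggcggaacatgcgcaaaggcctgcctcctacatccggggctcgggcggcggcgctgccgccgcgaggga
Eif4g1, chr16:20672627-20672746, plus strand: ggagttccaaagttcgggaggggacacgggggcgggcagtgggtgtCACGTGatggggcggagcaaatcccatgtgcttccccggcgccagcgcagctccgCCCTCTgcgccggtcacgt
Eif3k, chr7:28981869-28981988, minus strand: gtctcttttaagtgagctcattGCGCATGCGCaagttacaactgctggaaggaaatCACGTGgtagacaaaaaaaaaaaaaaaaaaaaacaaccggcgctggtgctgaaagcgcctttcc
Eif3f, chr7:108934315-108934434, plus strand: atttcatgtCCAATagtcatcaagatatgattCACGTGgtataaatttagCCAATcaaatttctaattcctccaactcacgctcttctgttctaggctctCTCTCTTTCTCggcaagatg
Eif5b, chr1:37997910-37998029, plus strand: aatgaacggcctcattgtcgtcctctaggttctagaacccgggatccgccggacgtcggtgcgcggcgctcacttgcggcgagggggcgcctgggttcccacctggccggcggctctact
Eif4b, chr15:102073673-102073792, plus strand: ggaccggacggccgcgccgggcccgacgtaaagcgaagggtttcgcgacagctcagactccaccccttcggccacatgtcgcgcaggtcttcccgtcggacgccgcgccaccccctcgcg
Eif3f and Eif4g1 hold such a pyrimidine run at the RefSeq start and Eif4b does not, and the windows of Eif3a, Eif5b and Eif4b hold none of the motifs searched.

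Genes with a match lay on both sides of 0 for most motifs. The E-box was in 10 of 37 promoters (250 bases before to 50 after the start), or 27.0%, against 11.7% of 9959 expressed genes and 8.09% of all 27025 genes with an entry. Of these 10, 5 were above 0 and 5 below 0, among them Eif3k, Eif3f, Eif3a, Eif4e and Eif4g1. An ETS motif, CCGGAAG, was in 15 (40.5%, against 19.7% of expressed genes), of which 7 were above 0 and 8 below 0. CCAAT was in 13 (35.1% against 42.2%), the NRF1 core in 3 (8.11% against 5.97%) and a TOP-like start in 8 (21.6% against 23.98%). For C/EBP factors, named in the study's title, TTGCNNAA was in 4 (10.8% against 9.73%) and the C/EBP-ATF element TGATGNAA in 0 of 37 (against 2.69%). A match is a description of letters and not of binding. Of the 4 genes listed as TOP genes, Eif3f, Eif3h and Eif3e were above 0 and Eif4b below. Their median of 0.21 became 0.01 with the GC and length trend removed. The ratio of Eif3e had an interval that included 1, and 6766 of all 12428 expressed genes were above 0.

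Transcript length moved with the differences. Across the 47 expressed initiation factor genes the log2 ratio and the length of the longest coding GENCODE M21 transcript had a Spearman correlation of -0.64, and across the 13 eIF3 subunits of -0.75, against -0.39 across 12375 expressed genes. These are correlations across genes of the same pair of libraries, and genes are not independent replicates. Of the 24 initiation factor genes of at most 2554 nucleotides, the members' median length, 18 were above 0, with a median of 0.28. Of the 23 longer ones 5 were above 0, with a median of -0.43. Over all expressed genes the medians were 0.36 and -0.09 in the same length classes, and 71.9% and 43.6% were above 0. The shorter initiation factor genes were thus close to the share of all genes, and the longer ones, at 21.7%, were below it. Eif5b (7797 nucleotides) and Eif4g3 (8134 nucleotides) were long and above 0, and Eif4g2 (7995 nucleotides) was long and below 0. GC content had a Spearman correlation with the log2 ratio of 0.42 across the 47 genes and 0.42 across all. With both trends removed, 7 of the 13 genes past 1.5-fold stayed past it in their direction: Eif4ebp2, Eif4g1, Eif4g2, Eif3a and Eif3c below, and Eif4ebp3 and Eif3f above.

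**Figure D4:**
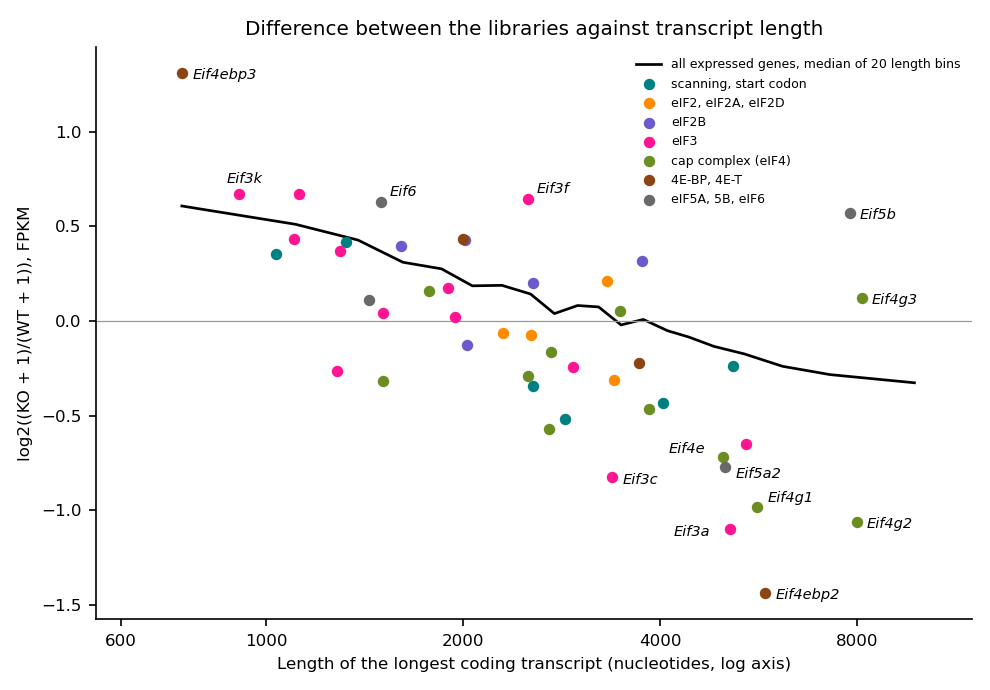
log2((KO + 1)/(WT + 1)) of 47 expressed genes against the length of the longest coding transcript on a log axis, coloured by role. The black line joins the medians of 20 length bins of all expressed genes and falls with length; Eif4ebp2, Eif3a, Eif4g1 and Eif4g2 lie below it and Eif5b above it.

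Other genes of translation are given by list. Of 11 genes of eIF2 phosphorylation and its reversal, 5 (45.5%, beside 13.5% of all expressed genes) were at least 1.5-fold lower and 0 (beside 21.4%) that much higher, with a median of -0.52. With the GC and length trend taken out the median was -0.40 and 3 were past the limit, Eif2ak3 and Dnajc3 of the 5 and also Atf4, at -0.79. The widest were Eif2ak3, the kinase PERK, at 8.75 FPKM in KO against 21.3 FPKM in WT (2.43-fold lower, 2.22 to 2.67), Dnajc3, an inhibitor of eIF2 kinases also known as P58IPK, at 41.8 FPKM in KO against 89.7 FPKM in WT (2.14-fold lower, 2.02 to 2.27), and Nck1, an adaptor, at a log2 ratio of -0.75. The eIF2 kinase genes other than Eif2ak3 lay on both sides of 0, with log2 ratios of -0.60 for Eif2ak1, -0.03 for Eif2ak4 and 0.21 for Eif2ak2. Of 15 genes of mTORC1 and its control of eIF4, 2 (13.3%, beside a share of 21.4% over all genes) lay at least 1.5-fold higher and 1 (6.67%, beside 13.5%) lower. Their median of 0.12 became -0.02 with either scaling to equal sums. Rps6kb2, a kinase of ribosomal protein S6, was at 51.2 FPKM in KO against 14.0 FPKM in WT, 3.65-fold higher (3.28 to 4.06); 23.7% of its exonic bases overlap genes on the other strand. Mknk1, a kinase of eIF4E, was at 17.8 FPKM in KO against 9.96 FPKM in WT, and the mTOR inhibitor Deptor at 8.30 FPKM in KO against 14.8 FPKM in WT. Deptor, the 1 lower gene, had a log2 ratio of -0.77 that became -0.33 with the trend taken out.

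Of 15 genes of poly(A)-binding and other accessory proteins, 2 (13.3%, beside a share of 21.4% over all genes) lay at least 1.5-fold higher and 3 (20.0%, beside 13.5%) lower. Their median of -0.18 became -0.33 with either scaling to equal sums. Paip2b, an inhibitor of the poly(A)-binding protein, was at 12.8 FPKM in KO against 31.4 FPKM in WT (2.46-fold lower, 2.25 to 2.70) and the helicase gene Ddx3x at 33.3 FPKM in KO against 73.6 FPKM in WT (2.21-fold lower, 2.10 to 2.32). Denr, a partner in reinitiation, was at 38.4 FPKM in KO against 23.7 FPKM in WT, a log2 ratio of 0.68. The 8 elongation factor genes had a median of 0.12, which became -0.03 with either scaling to equal sums and -0.11 with the GC and length trend taken out. As deposited, 1 (12.5%, beside 21.4% of all expressed genes) passed 1.5-fold, upward. It was Eef1d, an exchange factor subunit of eEF1A, at 56.9 FPKM in KO against 28.4 FPKM in WT, a log2 ratio of 0.98; the related subunit genes Eef1g and Eef1b2 had log2 ratios of 0.55 and 0.44. All 4 termination genes were below 0, with a median of -0.38, beside 5662 of all 12428 expressed genes below 0. At least 1.5-fold lower were 2 of the 4, beside 13.5% of all expressed genes. They were the release factor genes Etf1 (19.8 FPKM in KO against 37.6 FPKM in WT) and Gspt1 (10.4 FPKM in KO against 17.0 FPKM in WT). N6amt1, a methyltransferase for Etf1 protein, was at -0.11 and Gspt2 at -0.07, both with intervals that included a ratio of 1. With the trend taken out the median was -0.25 and Gspt1, at -0.44, was within 1.5-fold, which left Etf1.

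**Figure D5:**
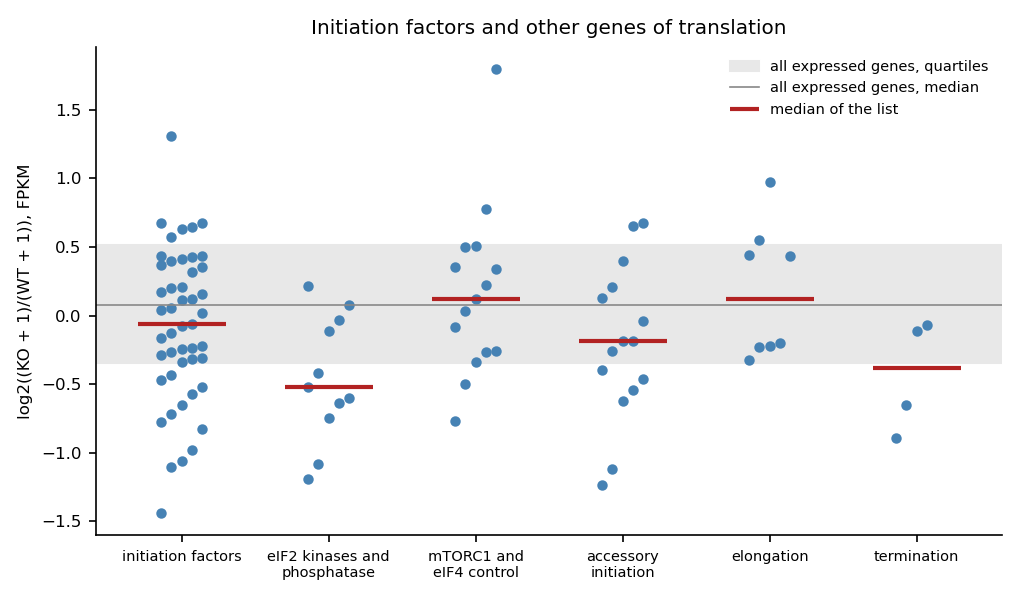
log2((KO + 1)/(WT + 1)) of expressed initiation factor genes and of 5 other lists of translation genes; each point is a gene and red bars are list medians. The grey band spans the quartiles of all expressed genes, -0.35 to 0.51. The median of the list of eIF2 kinases, phosphatase subunits and their regulators, -0.52, lies below it.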

How the data were processed

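The 2 samples, islets of KO and of WT mice, have 1 library each and were grouped by the genotype label. Per the labels' protocols, SMARTER mRNA-Seq libraries were built on total RNA. The authors deposited FPKM values, 1 column per library. The genome was GRCm38 (mm10), per the submitters' processing notes; the sources used here give no aligner, counting tool, annotation or strand setting.

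FPKM values were used unscaled. Library totals were found as the whole numbers that turn most values into whole reads over whole gene lengths, taking among multiples the total whose lengths best match annotated transcripts. Lengths from 60 to 30000 nucleotides were then searched per gene, and 99.6% of genes gave whole reads (tolerance 1e-05 of a read plus a relative 1e-09), against 2.0% of 1000 shuffled pairs. True reads are the smallest ones or a whole multiple, so intervals can be too wide. Reads amplified by PCR are not independent molecules.

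A gene was expressed at 1 FPKM or more in either library, with a pseudocount of 1. All initiation factor genes are accounted for. Full values are given for members past 1.5-fold, the 6 most abundant, paralogue families and the extremes of each role, and for other lists up to 3 genes with the widest ratios. Members and lists were chosen with earlier results of these data known. The alternatives were 2 pseudocounts, 2 floors, 3 scalings and removal of lowess trends (fraction 0.3, 3 iterations, GC content then log2 length, in 4 rounds) for 12375 of 12428 genes (99.6%). Python 3.11.15, scipy 1.17.1 and statsmodels 0.14.6 were used. Read recovery, fold calls, intervals and trend removal were tested on simulated data. The overlap, shared-word and promoter steps were not. Coordinates came from RefSeq on GRCm38.p6 and transcripts from GENCODE M21.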

Additional observations from a re-analysis of the deposited data

How the results depend on the processing

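With 1 library per genotype no value has a biological error. Depth limits low genes such as Eif3j2, with at least 23 reads in KO and 31 in WT. The interval of Eif2s2, 0.762 to 1.18, rests on smallest whole reads of 148 in KO and 205 in WT. Its levels were 28.4 FPKM in KO and 29.9 FPKM in WT, and its longest coding transcript has 2542 nucleotides. True reads may therefore be a multiple of the smallest, so this interval can be too wide and is no measure of depth. No paired analysis was possible because each genotype has 1 sample. The 5 genes at least 1.5-fold higher became 1 with libraries scaled to a sum of 1000000, 1 with the median ratio set to 1, 1 with equal sums without the 20 highest genes, and 3 with the GC content and length trend removed. With any of the 3 scalings Eif3f, Eif3i, Eif3k and Eif6 dropped below the limit and Eif4ebp3 was left, while Eif1a and Eif4a2 passed it downward. The 8 genes at least 1.5-fold lower became 5 with a pseudocount of 5 FPKM, without Eif3j1, Eif4e and Eif5a2. The 3 genes at least 2-fold lower became 1, Eif4ebp2, with the trend removed, where the 1 gene at least 2-fold higher was Eif5b in place of Eif4ebp3. The cause was not tested. Higher genes made up 38.5% of the members' 1.5-fold calls and 61.3% of those of all genes, against 9.09% and 52.2% with the median ratio, 8.33% and 45.9% with equal sums, and 33.3% and 52.5% with the trend removed. The median of the members stayed below 0 in all 8 alternatives, between -0.20 and -0.04, and below that of all genes in each. No member past 1.5-fold changed sign in any alternative that gave it a value.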
